A study of Mus musculus with 2 samples.

Results

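The 8 genes described here encode insulin-like growth factor 1 (Igf1), its receptor (Igf1r) and 6 of the IGF binding proteins (Igfbp2 to Igfbp7), out of 21849 genes in the count tables. They were taken by gene symbol, and Igfbp2 was chosen by its rise in culture, so the difference of Igfbp2 between the libraries is a description and not a finding. Costal-cartilage-derived stem cells (CDSCs) came from the rib cartilage of newborn CD45.1 or ZsGreen C57BL/6J mice, and the strain was not assigned to a library by the labels. The cartilage was digested with collagenase and a sort kept CD51-positive cells without CD45, CD51 being an integrin subunit and CD45 a protein of blood cells. The study asked how these cells change during expansion. One group, primary, was sequenced after isolation, and the other, cultured, was sequenced at passages 2 to 3 in medium with serum. No other treatment separates the groups, and each group is 1 library.

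Both libraries carry the tissue label bone marrow, whereas the methods describe rib cartilage. After the cell filter, 11746 primary cells with 137148874 UMIs and 5338 cultured cells with 330129909 UMIs were kept. UMIs are counts of single captured transcripts, and levels below are counts-per-million (CPM) values within the library or cluster. The median was 10026.5 UMIs per primary cell and 56864.5 UMIs per cultured cell. Of the cultured barcodes, 50.6% failed the filter, against 1.26% of the primary barcodes. Itgav, which encodes CD51, was at 92.5 CPM in primary and 109 CPM in cultured cells, and Ptprc, which encodes CD45, was at 0.620 and 0.345 CPM. Cartilage markers differed between the libraries, with Col2a1 at 53268 CPM in primary and 490 CPM in cultured cells, and Matn1 at or under 3 counts in culture. ZsGreen, the name of a donor strain, had 60957 counts in 10817 primary cells and 0 counts in cultured cells. A difference between donor strains, animals, preparations or runs cannot be told apart from culture. The libraries shared 32 barcode sequences, of which 15 were kept in both.

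With 1 library per group no test was possible and no difference has a replicate check. The ranges in parentheses are exact 95% limits for counting error and leave out all other error. A log2 ratio is cultured over primary CPM. In such sums, fewer cells of a type and less RNA per cell cannot be told apart.

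IGF1 is a secreted hormone and local growth factor that binds the receptor tyrosine kinase IGF1R, and in growth cartilage it promotes chondrocyte growth and matrix production. The secreted binding proteins of high affinity, IGFBP1 to IGFBP6, hold IGFs in the circulation and in the matrix, and can limit or prolong their access to the receptor. IGFBP7 binds IGFs with low affinity. Proteases such as pappalysin cut binding proteins and set IGF free, and inside the cell the receptor acts through insulin receptor substrates, PI3 kinase and AKT, which keeps FOXO factors out of the nucleus.

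The promoters of 4 genes are shown because their genes make up most of the binding protein UMIs or lie side by side. Each runs 5′ to 3′ on the strand of its gene, from 250 bases before to 50 bases after the RefSeq start (GRCm38.p6). Capitals mark 2 of 3 searched motifs, each read on both strands. The GC box was searched as GGGCGG. The TATA box was searched as TATAAA. The letters CCAAT were searched too and had no match in these windows. Igfbp2 (chr1:72824230-72824529, plus strand) had a 1867-fold ratio between the libraries and Igfbp5 (chr1:72874816-72875115, minus strand) is its neighbour on chromosome 1. Igfbp4 (chr11:99040994-99041293, plus strand) was the third most abundant binding protein in culture, and Igfbp7 (chr5:77407996-77408295, minus strand) was the most abundant in primary cells.
Igfbp2: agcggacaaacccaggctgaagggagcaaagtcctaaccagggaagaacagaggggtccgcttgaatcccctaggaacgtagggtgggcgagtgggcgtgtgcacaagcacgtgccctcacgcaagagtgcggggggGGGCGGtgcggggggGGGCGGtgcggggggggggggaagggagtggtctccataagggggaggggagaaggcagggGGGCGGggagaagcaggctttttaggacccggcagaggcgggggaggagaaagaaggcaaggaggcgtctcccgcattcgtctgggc
Igfbp5: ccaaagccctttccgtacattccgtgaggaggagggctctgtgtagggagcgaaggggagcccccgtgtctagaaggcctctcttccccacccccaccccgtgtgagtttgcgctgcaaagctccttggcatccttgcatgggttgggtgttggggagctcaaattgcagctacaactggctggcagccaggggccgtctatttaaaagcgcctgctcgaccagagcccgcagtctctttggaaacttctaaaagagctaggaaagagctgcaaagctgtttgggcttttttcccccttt
Igfbp4: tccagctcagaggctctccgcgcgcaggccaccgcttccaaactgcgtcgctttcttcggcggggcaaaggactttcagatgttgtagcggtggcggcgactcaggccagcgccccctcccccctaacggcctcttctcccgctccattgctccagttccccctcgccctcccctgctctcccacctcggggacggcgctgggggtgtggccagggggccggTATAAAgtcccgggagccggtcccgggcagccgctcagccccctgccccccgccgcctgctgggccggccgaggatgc
Igfbp7: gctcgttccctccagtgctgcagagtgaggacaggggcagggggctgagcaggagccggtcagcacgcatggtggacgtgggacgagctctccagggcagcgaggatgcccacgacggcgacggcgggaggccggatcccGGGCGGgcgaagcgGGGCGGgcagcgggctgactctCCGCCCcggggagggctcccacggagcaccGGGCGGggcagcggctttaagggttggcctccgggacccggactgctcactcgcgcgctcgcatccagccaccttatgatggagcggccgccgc

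The Igfbp2 window held 3 GC boxes, the Igfbp7 window 4 GC boxes, the Igfbp4 window 1 TATA box and the Igfbp5 window none of these motifs. Over all 32851 promoter windows of the same length, 35.7% held a GC box, 13.6% a TATA box and 37.4% a CCAAT box. The GC content was 67% for Igfbp2, 56.3% for Igfbp5, 71.3% for Igfbp4 and 73.3% for Igfbp7, against a median of 52.7% over all windows. All 8 genes matched the RefSeq table, and Igfbp2 has another entry there whose window held none of the motifs. These matches are letters in a window and say nothing of a factor's binding.

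In GENCODE M21 (GRCm38), Igfbp2 spans chr1:72824503-72852474 on the plus strand and Igfbp5 spans chr1:72857932-72874884 on the minus strand, so that their 3′ ends face each other across 5457 bases. Igfbp3 (chr11:7206086-7213923, minus strand) lies 3539 bases from Igfbp1. Igfbp4 spans chr11:99041244-99054392, Igfbp6 chr15:102144362-102149511, Igf1 chr10:87858265-87937042 and Igf1r chr7:67952827-68233668, all on the plus strand. Igfbp7 (chr5:77349240-77408041, minus strand) overlaps Polr2b, and Igf1 overlaps the antisense gene Igf1os, each on the opposite strand. The strand setting of the counting was not given in the sources used here.

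Culture went with more Igf1 UMIs and a modestly higher level of its receptor. Igf1 was at 8.49 CPM in primary (8.01 to 8.99) and 46.6 CPM in cultured cells (45.8 to 47.3), a log2 ratio of 2.46 (2.37 to 2.54). Of its 1164 primary UMIs, 992 lay in 1 cluster of 289 cells, called the mixed cluster here and described below, and the remaining 11457 primary cells held 1.28 CPM. Without that cluster, a setting chosen after seeing the data, the log2 ratio of Igf1 was 5.19. When each cell was given the same weight, the ratio was 1.91, under 4-fold. Igf1r was at 214 CPM in primary (212 to 217) and 339 CPM in cultured cells (337 to 341), a log2 ratio of 0.66 (0.65 to 0.68), and 0.67 without the mixed cluster.

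Among the binding proteins, Igfbp2 differed most. IGFBP2 is a secreted protein with a heparin-binding and an integrin-binding motif, abundant in fetal tissues. The primary library held 50 Igfbp2 UMIs among 137148874, or 0.365 CPM (0.271 to 0.481), and the cultured library 224647, or 680 CPM (678 to 683). The log2 ratio was 10.87 (10.47 to 11.30), the 4th highest of the 9115 genes that reached 10 CPM in a library. By level Igfbp2 ranked 13225th in primary and 192nd in cultured cells.

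Igfbp4, whose product inhibits IGF action until it is cut by pappalysin, was at 18.5 CPM in primary (17.7 to 19.2) and 221 CPM in cultured cells (220 to 223), a log2 ratio of 3.58 (3.53 to 3.64). Igfbp6 encodes a binding protein that prefers IGF2, and its level was 5.12 CPM in primary (4.75 to 5.51) and 18.1 CPM in cultured cells (17.7 to 18.6), a log2 ratio of 1.82 (1.71 to 1.94). The mixed cluster held 41.5% of the primary Igfbp4 UMIs and 62.5% of those of Igfbp6. Without it the log2 ratios were 4.33 and 3.21, and with at least 5000 UMIs per cell the ratio of Igfbp6 was 2.05, past 4-fold.

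The matrix-bound binding protein gene Igfbp5 had nearly the same summed level in both libraries. It was at 8.84 CPM in primary (8.35 to 9.36) and 10.7 CPM in cultured cells (10.33 to 11.04), a log2 ratio of 0.27 (0.18 to 0.37). That value rested on few cells on both sides, since the mixed cluster held 74.4% of the primary UMIs and a cultured cluster of 184 cells held 42.5% of the cultured UMIs. Without the mixed cluster the primary level was 2.31 CPM and the log2 ratio 2.21, and with each cell given the same weight the log2 ratio was -0.026. Igfbp3, the main carrier of IGFs in blood, was low in both libraries at 1.41 CPM in primary (1.22 to 1.63) and 1.88 CPM in cultured cells (1.74 to 2.04). Its log2 ratio was 0.41 (0.18 to 0.65), and 3.13 without the mixed cluster, which held 85.1% of the primary UMIs.

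Igfbp7 was the only one of the 8 genes with a lower level in culture, apart from Igfbp5 when each cell was given the same weight. Its level was 772 CPM in primary (767 to 777) and 391 CPM in cultured cells (389 to 393), a log2 ratio of -0.98 (-0.99 to -0.97), and the mixed cluster held 2.31% of its primary UMIs. Igfbp1, a liver binding protein added as a further member of the family, had 2 UMIs in primary and 1 in cultured cells, so no ratio was given.

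A threshold of 10 CPM in 1 of the libraries left 9115 genes of the whole table. Of these, 10.6% had a level in culture at least 4-fold above that in primary cells and 5.73% at least 4-fold below it, and the median log2 ratio was 0.37. The threshold left 7 of the 8 genes described, Igfbp3 being the exception. Igfbp2, Igfbp4 and Igf1 were at least 4-fold higher, and none was at least 4-fold lower. The median of the 7 was 1.82. Since Igfbp2 entered by its ratio, the count of 3 is a description. Without the mixed cluster the count was 5, with Igfbp5 and Igfbp6 added. Scaling by edgeR's TMM factors moved the median of all genes by -0.21, and the log2 ratio of Igfbp2 was then 10.67, that of Igfbp4 3.39, that of Igf1 2.26 and that of Igfbp7 -1.18.

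**Figure D1:**
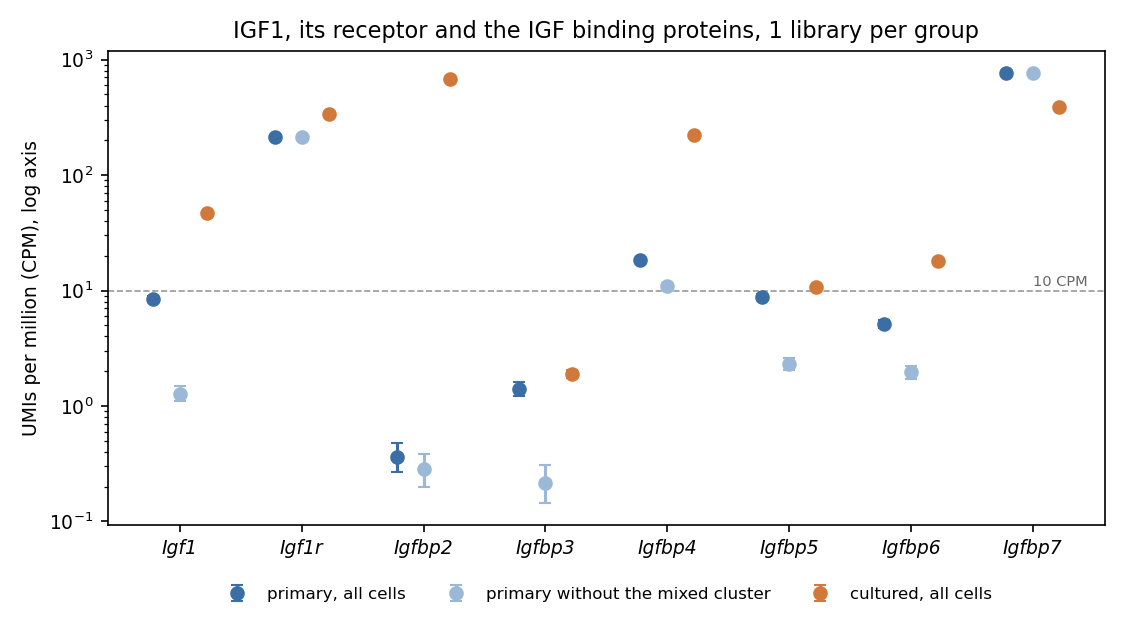
Level of each gene in CPM (log axis) in all primary cells, in primary cells without the mixed cluster and in all cultured cells, with exact 95% Poisson intervals that are mostly smaller than the points. Igfbp2 lies at 0.365 CPM in primary and 680 CPM in cultured cells. The points of Igf1, Igfbp3, Igfbp4, Igfbp5 and Igfbp6 drop when the mixed cluster is left out.

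Both the make-up of the binding protein UMIs and their sum include Igfbp2, which was chosen by its rise in culture. The differences in both are descriptions. UMIs were counted from the 3′ end of transcripts, so no scaling by length applies, and shares are of captured UMIs. All 7 binding protein genes (Igfbp1 to Igfbp7) summed to 806 CPM in primary (801 to 811) and 1324 CPM in cultured cells (1320 to 1328), a log2 ratio of 0.72. Igfbp2 made up 0.365 CPM of the primary sum and 680 CPM of the cultured sum. By these values the other binding protein genes together had a lower level in culture. The ratio of their sums was not computed. In primary cells, Igfbp7 made up 95.8% of the sum and Igfbp4 2.29%, and the share of Igfbp2 was 0.0452%. Cultured cells divided the sum into 51.4% Igfbp2, 29.5% Igfbp7, 16.7% Igfbp4 and 1.37% Igfbp6. The mixed primary cluster stood apart from both, with 1913 CPM in all, of which Igfbp7 made up 48.8%, Igfbp4 20.97%, Igfbp5 18.0%, Igfbp6 8.76% and Igfbp3 3.29%.

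**Figure D2:**
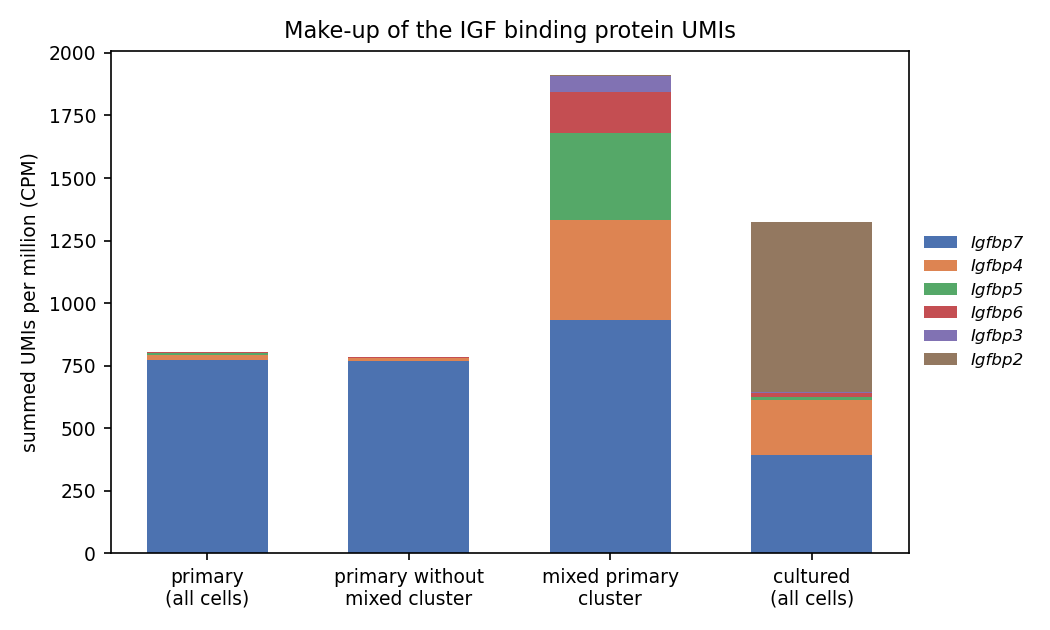
Summed CPM of Igfbp2 to Igfbp7 (Igfbp1, with 3 UMIs in all, is not drawn) in 4 sets of cells, stacked by gene. Nearly the whole primary bar is Igfbp7, the mixed cluster's bar adds Igfbp4, Igfbp5, Igfbp6 and Igfbp3, and Igfbp2 is more than any other segment of the cultured bar.

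To compare how many cells carried each transcript, every cell was thinned to 5000 UMIs, which left 10959 primary cells (median 10432 UMIs before thinning) and 4543 cultured cells (median 66411). Cells left out as shallower numbered 787 and 795. Igfbp2 had a UMI in 0.201% of primary cells (0.126 to 0.304) and 53.5% of cultured cells (52.07 to 54.99). Before thinning the shares were 0.392% and 87.7%. Igfbp4 had a UMI in 6.17% of primary (5.73 to 6.64) and 51.1% of cultured cells (49.6 to 52.5), Igf1 in 1.63% (1.40 to 1.89) and 14.6% (13.6 to 15.6), and Igfbp6 in 1.51% (1.29 to 1.75) and 7.88% (7.11 to 8.70). The share for Igf1r was 60.5% (59.6 to 61.4) in primary and 75.1% (73.8 to 76.3) in cultured cells. Igfbp7 went the other way, with 91.9% (91.4 to 92.4) and 63.7% (62.2 to 65.1). For Igfbp5 the shares were 1.82% (1.58 to 2.09) and 3.26% (2.76 to 3.82), and for Igfbp3 0.328% (0.230 to 0.454) and 0.880% (0.630 to 1.20).

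Free RNA in droplets can give UMIs in cells that do not express a gene, and the 9 cultured cells named haematopoietic-like (Dock2, Ccl12 and Pf4 leading) served as a small comparison. After thinning, 2 of the 9 had an Igfbp2 UMI (22.2%, 2.81 to 60.0), at a median of 35946 UMIs before thinning, and none had more than 1. For Igfbp4, 7 of the 9 had a UMI (77.8%, 40.0 to 97.2) and 44.4% had at least 2, and for Igf1, 6 of the 9 did (66.7%, 29.9 to 92.5). These shares were not below those of all cultured cells, so the 9 cells give no background for Igfbp4 or Igf1. The share over all cultured cells with at least 2 Igfbp2 UMIs was 35.9%. In the primary library the 16 cells outside the mixed cluster with an Igfbp2 UMI had 1 each, among 10773 cells (0.149%, 0.0849 to 0.241). A share that low cannot be told from background. Cultured cells differed widely in Igfbp2. The highest cell had 122 of its 5000 UMIs on Igfbp2, and the tenth of cells with the most held 62.9% of the Igfbp2 UMIs, compared with 49.2% for Igfbp4, 43.2% for Igfbp7 and 31.0% for Igf1r. The rarer transcripts had higher values, 83.4% for Igf1 and 100% for Igfbp3, Igfbp5 and Igfbp6.

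**Figure D3:**
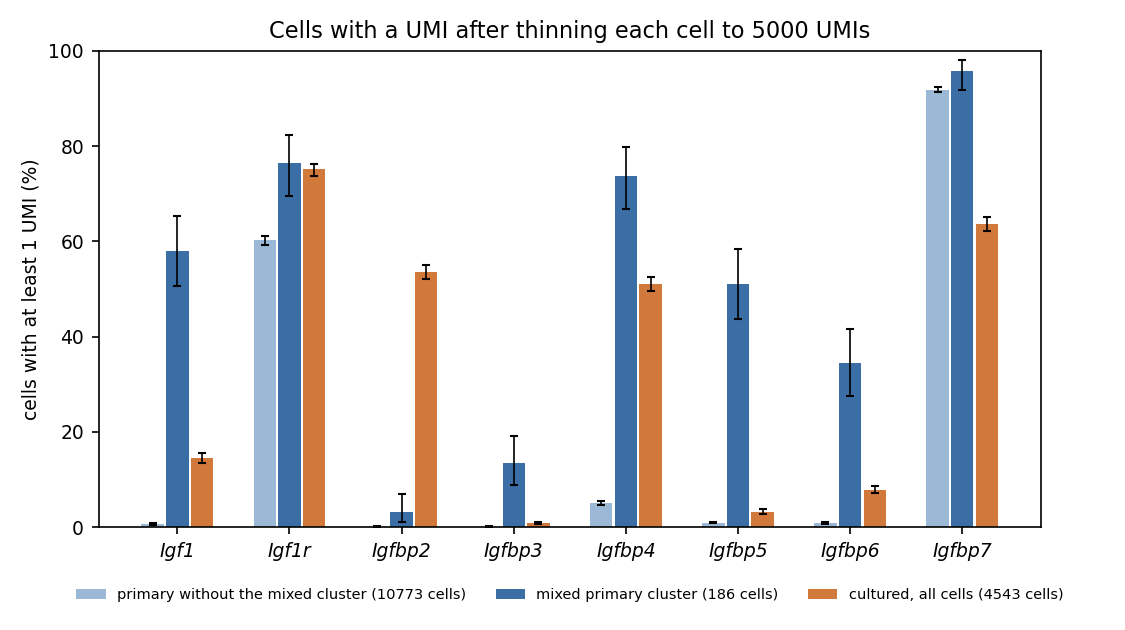
Percentage of cells that had a UMI of each gene after thinning to 5000 UMIs per cell, with exact 95% binomial intervals, for primary cells without the mixed cluster, the mixed primary cluster and all cultured cells. The mixed cluster, of which 186 of 289 cells reached 5000 UMIs, exceeds both other sets for Igf1, Igfbp3, Igfbp4, Igfbp5 and Igfbp6. Its bars for Igfbp7 (95.7%) and Igf1r (76.3%) are also the highest, but their intervals overlap those of the next highest set. The Igfbp2 bar is 53.5% in cultured cells and 0.149% in primary cells without the mixed cluster.

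Each library was clustered separately. The 8 genes were among those clustered, so levels by cluster are descriptions. Of the 10 primary clusters, 8 were chondrocyte-like by markers of cartilage, and a cluster led by Aoc2, Grem1 and Acta2 (1272 cells) was not named. That cluster had 11 cartilage markers at 1000 CPM or more, while Acta2 is on the smooth muscle list. The mixed cluster (289 cells, 2.46% of the primary cells) was not named either, because its leading genes, among them Tpsb2, Cma1, Mcpt4, Cpa3 and Gpihbp1, belong to several cell types. Its summed level of 10 mesenchymal fibroblast markers was 26169 CPM against 2845 CPM in the other primary cells, with 9 of the 10 higher. The 9 endothelial markers summed to 495 CPM against 7.33 CPM and the 5 mast cell markers to 450 CPM against 0.349 CPM. The 13 cartilage markers summed to 43671 CPM against 90291 CPM, with 0 of the 13 higher in the mixed cluster. Among cultured cells the fibroblast markers summed to 1722 CPM and the mast cell markers to 0.173 CPM, with Cma1, Mcpt4 and Tpsb2 at or under 3 counts. Sums were higher in culture for other lists, since the 10 smooth muscle and pericyte markers summed to 323 CPM in primary and 1393 CPM in cultured cells and the 10 haematopoietic markers to 6.62 and 28.2 CPM. The part that such cells had in the differences between libraries was not tested beyond leaving the cluster out.

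Outside the mixed cluster, Igf1 ranged from 0.357 to 4.59 CPM over the other 9 primary clusters, Igfbp5 from 0.525 to 9.44 CPM, Igfbp6 from 1.04 to 3.15 CPM and Igfbp3 from 0.0510 to 0.797 CPM. The mixed cluster was at 379 CPM for Igf1, 344 CPM for Igfbp5, 168 CPM for Igfbp6 and 63.0 CPM for Igfbp3, so its level was above every other primary cluster for all of these. It was also highest for Igfbp4, at 401 CPM, and for Igfbp2, at 4.58 CPM from 12 UMIs. Igf1r varied 2.68-fold and Igfbp7 4.76-fold among primary clusters. Both were highest not in the mixed cluster but in chondrocyte-like cells led by Tll1, Clu, Specc1, Ppargc1a and Arsi (1773 cells), at 366 CPM (357 to 376) and 1684 CPM (1663 to 1705). These cells also had the second highest levels of Igf1, Igfbp3, Igfbp4 and Igfbp5, at 4.59, 0.797, 43.3 and 9.44 CPM.

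The mixed cluster was clustered again into 9 groups, 5 of them mesenchymal fibroblast-like, 1 smooth muscle and pericyte-like and 3 not named. Igf1 reached 951 CPM (222 UMIs) in 33 fibroblast-like cells led by Khdrbs2, Adamtsl1, Col1a1, Csrnp3 and Igf1, and was at 51.2 CPM (15 UMIs) in 26 cells led by the mast cell genes Tpsb2, Cma1, Mcpt4 and Cpa3 and the endothelial gene Gpihbp1. Igfbp5 was highest, at 1237 CPM (264 UMIs), in 42 fibroblast-like cells led by Kera and Igfbp5. Igfbp6 was highest, at 751 CPM (100 UMIs), in 30 fibroblast-like cells led by Kera, Rspo2 and Igfbp3, which also had 6 of the 50 primary Igfbp2 UMIs. Igfbp3 was at 253 CPM (198 to 317, 74 UMIs, 38.1% of all primary Igfbp3 UMIs) in the 26 cells with mast and endothelial genes and at 225 CPM (152 to 322, 30 UMIs) in the 30 cells led by Kera, Rspo2 and Igfbp3, so these levels overlap. Among the former, 7 of 18 thinned cells had an Igfbp3 UMI (38.9%, 17.3 to 64.3), 11.1% had at least 2, and 1 cell had 13. Among the 121 thinned fibroblast-like cells, 14.9% had an Igfbp3 UMI (9.06 to 22.5) and 4.96% had at least 2. The same 26 cells had the highest Igfbp7 level of the 9 groups, at 1546 CPM. Igfbp6 and Igfbp2 had 0 UMIs there.

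Across thinned primary cells the log(count + 1) values of Igfbp5 and Igf1 had a Pearson correlation of 0.531 over 10959 cells. Those of Igfbp4 and Igf1 had 0.472. Without the mixed cluster the values were 0.0798 and 0.0763 over 10773 cells. In the cultured library the highest of the 28 pairs was Igfbp5 with Igf1, at 0.179 over 4543 cells. There, 1 cluster of 184 cells held 42.5% of the Igfbp5 UMIs and 23.6% of the Igf1 UMIs. The cultured correlation without that cluster was not computed. All of these cells share 1 library and 1 depth, and the values are descriptions.

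Among the 9 cultured clusters of at least 50 cells, 5 of the 7 genes at 10 CPM or more varied at least 4-fold. The share of all genes that varied so was not computed, so this count is no trait of these genes. A cluster with Ptn, Thy1 and Crabp1 among its leading genes (184 cells, 3.45% of the cultured cells) was highest for Igfbp2, Igf1, Igfbp5 and, at a low level, Igfbp3. Its levels were 2812 CPM for Igfbp2, 282 CPM for Igf1, 116 CPM for Igfbp5 and 16.2 CPM for Igfbp3. For Igfbp6 its 26.6 CPM (23.9 to 29.6) overlapped the 24.7 CPM (23.6 to 25.8) of the Hmcn1 cluster described below, and with the 8 genes left out of the clustering another cluster was highest, at 28.4 CPM. It held 16.1% of the cultured UMIs of Igfbp2, 23.6% of Igf1, 42.5% of Igfbp5 and 33.6% of Igfbp3. Leaving the 8 genes out of the clustering gave a cluster of 184 cells that shared 180 cells with it, so this cluster did not rest on the genes described. The cultured library without these cells had 594 CPM of Igfbp2, 37.0 CPM of Igf1 and 6.39 CPM of Igfbp5.

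The lowest Igfbp2 level, 53.0 CPM, was in the cluster led by Csmd1, Mmp13, Sfrp4, Gdf10 and Fap (451 cells), which had the highest Igfbp4 level, 405 CPM. This 53.0-fold range of Igfbp2 depended on the clustering: it was 12.3-fold with the 8 genes left out of the clustering and 9.35-fold with 30 principal components. Igfbp7 was highest in the cluster led by Nr5a2, Barx1, Sfrp2, Ptgis and Crct1 (285 cells), at 1244 CPM, against 198 CPM in the cluster led by Hmcn1, Il1rl1, Ahrr, Angptl7 and Ccbe1 (966 cells). The same 285 cells had the highest Igf1r level, 535 CPM, and the second highest Igfbp2 level, 1239 CPM. Igf1r varied 2.66-fold and Igfbp4 2.67-fold among the 9 clusters. These ranges depended on the clustering too. They were 5.12-fold and 11.8-fold at Leiden resolution 1, and 3.53-fold and 2.67-fold with 30 principal components. Cultured Igf1 was lowest in the Hmcn1 cluster, at 15.6 CPM, and was at 90.8 CPM in a cluster led by Cytl1, Gpc3, Aspn, Omd and Peg3 (714 cells). Outside these clusters, the 9 haematopoietic-like cells had 414 CPM of Igf1 and 93.7 CPM of Igfbp2. A cluster of 756 cells with a median of 1213 UMIs, led by Cmss1, Lars2, Camk1d, Gphn and Acta2, had 740 CPM of Igfbp2 and 26.3 CPM of Igf1, both within the range of the deeper clusters.

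**Figure D4:**
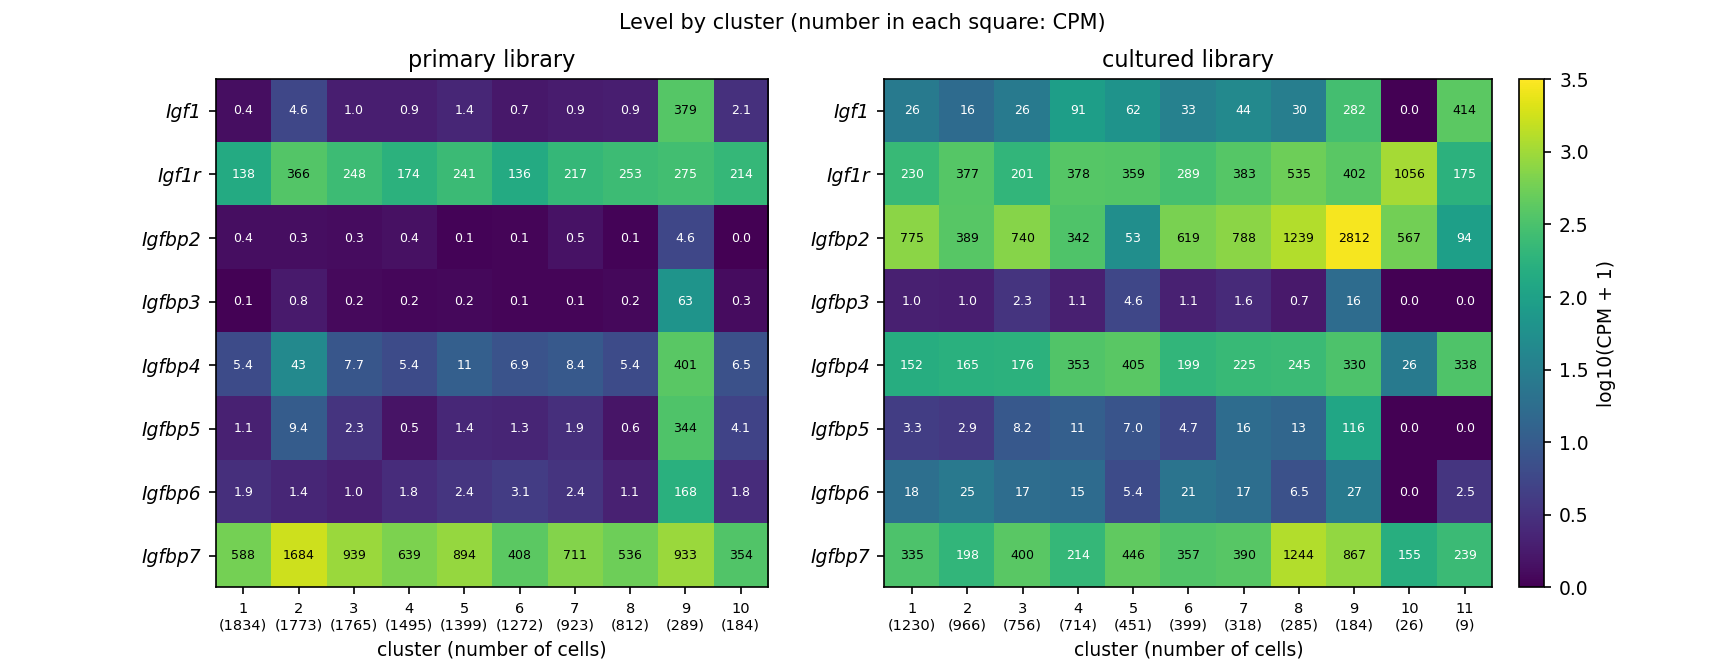
Level of each gene in every cluster of the primary (left) and cultured library (right), coloured by log10(CPM + 1) with the CPM printed in each square and the number of cells under each cluster number. Cluster 9 of the primary library (the mixed cluster, 289 cells) and cluster 9 of the cultured library (184 cells) are bright for Igf1 and Igfbp5, and Igfbp2 is bright across cultured clusters except clusters 5 and 11.

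The genes most like each of the 8 were named by the Pearson correlation of log2(CPM + 1) over the clusters of at least 50 cells of a library, among genes with at least 50 CPM. With 9 or 10 clusters that share a library, these values order genes and test nothing. For cultured Igfbp2 they were Ddah1 (0.97), Scx (0.95) and P3h4 (0.94). Ddah1 encodes an enzyme that breaks down methylated arginines and Scx a tendon transcription factor. The genes nearest to cultured Igf1 were Ecrg4 (0.98), Col6a3 (0.95) and Col3a1 (0.91), and those nearest to cultured Igfbp5 were Pdlim7 (0.95), Glipr2 (0.95) and Tgfb1i1 (0.94). Cultured Igf1r ran with Crim1 (0.98), Plxna2 (0.97) and Mecom (0.96). Primary Igfbp4 ran with the matrix genes Mfap2 (0.98), Pcolce (0.97) and Mmp14 (0.97), whereas cultured Igfbp4 ran with Smarca2 (0.95), Samhd1 (0.94) and Sorbs2 (0.92). The primary clusters include the mixed cluster, where Igfbp4 was at 401 CPM against 43.3 CPM in the next highest cluster. Correlations without the mixed cluster were not computed. For primary Igfbp7 the genes were Fap (0.98), Ypel3 (0.97) and Fdx1 (0.97). Igfbp6 in culture had Cd248 (0.90), Ociad1 (0.87) and Npnt (0.85), and primary Igf1r had Cadm1 (0.97), Aplp2 (0.96) and Cnot6 (0.96).

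The other genes of the pathway were taken from lists of 87 genes, of which 71 reached 10 CPM in a library. Of these, 10 (14.1%) had a level in culture at least 4-fold above and 9 (12.7%) at least 4-fold below the primary level, beside 10.6% and 5.73% of all genes, and their median log2 ratio was -0.01. Of the 8 other genes for ligands, receptors and carriers, 3 reached 10 CPM, and none of the 3 was 4-fold apart. Genes under that minimum were not called. Igf2, the fetal ligand, was at 47.7 CPM in primary and 27.9 CPM in cultured cells, and overlaps another annotated gene on the same strand, so its counts are uncertain. Igf2r, the receptor that clears IGF2, was at 176 and 131 CPM, and the insulin receptor Insr at 37.5 and 30.8 CPM.

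Of 11 measured proteases and protease inhibitors that act on binding proteins, 4 were higher and 1 lower by at least 4-fold (36.4% and 9.09%). Over all genes the shares were 10.6% and 5.73%, and the same 2 shares stand beside each later list. Pappa, which encodes pappalysin 1, was at 9.62 CPM in primary and 61.2 CPM in cultured cells (log2 ratio 2.67), and Adamts1 at 22.9 and 135 CPM (2.56). The plasminogen activators Plat (3.49) and Plau (2.84) were the other higher genes. Htra3, a secreted serine protease, was the lower one, at 106 and 4.13 CPM (-4.69). Among 7 measured genes outside the family whose products carry an IGF binding protein domain, Ccn5 was higher, from 1.502 to 170 CPM (6.83), and Ccn6 (-8.37), Ccn1 (-2.60) and Ccn2 (-2.14) were lower. Ccn6 was at 36.1 CPM in primary and 0.109 CPM in cultured cells. Kazald1, another domain gene, had a log2 ratio of -1.90.

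Inside the cell, 28 of the 32 measured signalling genes lay within 4-fold, as did 7627 of the 9115 genes of the whole table. Grb14, an adaptor that inhibits insulin receptor signalling, went from 0.809 to 61.6 CPM (6.25), and the PI3 kinase subunit gene Pik3cb from 5.67 to 42.1 CPM (2.89). Socs2, a suppressor of growth hormone signalling, went from 67.1 to 4.22 CPM (-3.99), and Socs3 from 261 to 27.6 CPM (-3.25). Of 17 measured genes that FOXO factors are known to raise, 2 were higher, Cited2 (4.02) and Fbxo32 (2.51), and 3 were lower, Trib1 (-2.52), Klf15 (-2.37) and Bcl6 (-2.30), with a list median of -0.27. These genes have other regulators too. Of the 3 genes for IGF2 mRNA binding proteins, Igf2bp1 was at least 4-fold higher, from 4.24 to 27.5 CPM (2.70). For these 20 pathway genes the mixed cluster held from 0.817% to 7.06% of the primary UMIs, and no ratio among them changed sign without it.

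**Figure D5:**
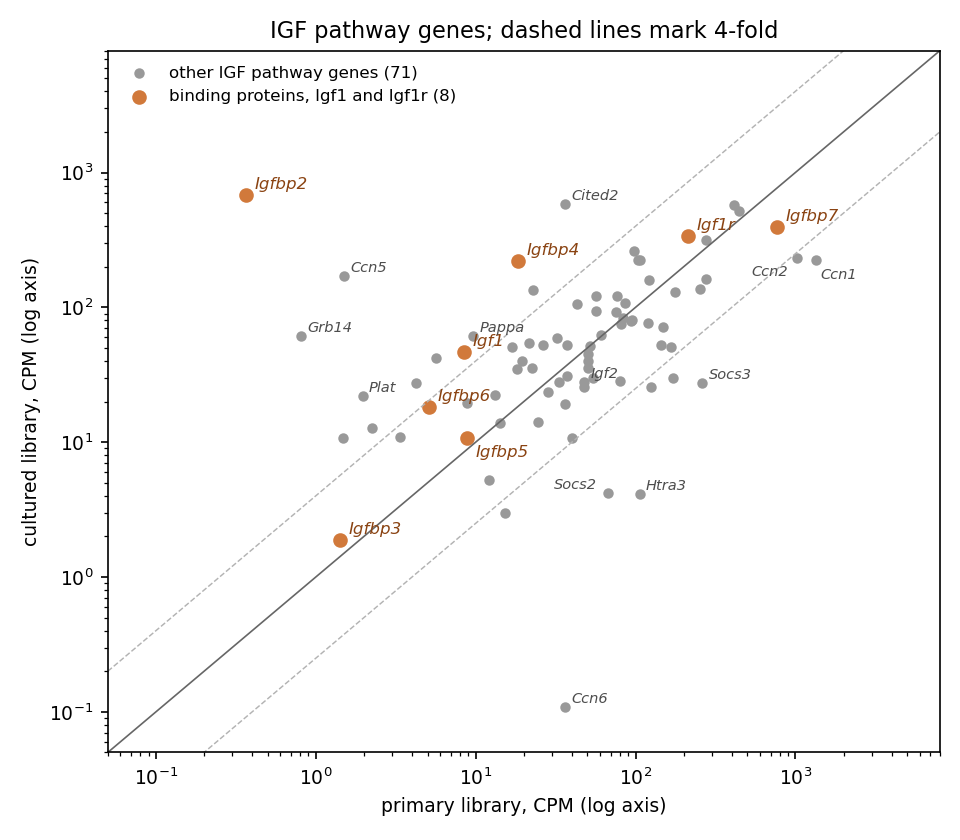
Level of the 71 other pathway genes (grey) and of the 8 genes described (orange) in the primary library (x axis) and the cultured library (y axis), both in CPM on log axes, with the line of equality and dashed lines at 4-fold. Igfbp2 lies furthest above the upper dashed line among the genes shown and Ccn6 furthest below the lower one.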

How the data were processed

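Single-cell RNA sequencing of 1 primary and 1 cultured CDSC library had used a 10x Chromium 3′ kit (version 3.1), with 20000 viable cells prepared. The deposited values are raw UMI counts per gene and barcode, which the authors had made with Cell Ranger 7.0.0 on mm10/GRCm38, and the submitters' processing notes also name GRCm39. The annotation and the setting for intronic reads were not given in the sources used here, and coordinates came from GENCODE M21 by gene identifier.

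A barcode was kept from 500 genes and 1000 UMIs upwards, unless its mitochondrial share of UMIs exceeded 10%. The members and gene lists were chosen with earlier results of these data known. Named genes were the 8 members, Igfbp1, the 20 pathway genes furthest apart by log2 ratio of those that reached 10 CPM, the 3 genes most like each member, and the leading genes of clusters described. Some genes that this rule would name are not reported here. Igf2, Igf2r, Insr and cell type markers were also named, after their values were seen.

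Counts were summed per library, scaled to CPM and compared as log2 ratios, with counts under 3 raised to 3. Intervals at 95% are exact Poisson, binomial (Clopper-Pearson) or conditional and cover counting error only. A gene counted as apart at 4-fold, with at least 10 CPM in either library. No test was run, as each group is 1 library. The depth of 137148874 and 330129909 UMIs kept counting error small for all but Igfbp1, Igfbp3 and primary Igfbp2. Cells were thinned to 5000 UMIs without replacement. Clusters used scanpy 1.11.5 and leidenalg 0.10.2 (2000 variable genes, 10 components, 20 neighbours, resolution 0.5), and were named from 3 or more markers, each at 50 CPM or above and 4-fold over the other cells. The mixed cluster was clustered again with 10 neighbours at resolution 1. A cluster where no list reached 3 such markers was chondrocyte-like if at least 3 cartilage markers had 1000 CPM or more and no marker of another list was among its 10 leading genes, a step that free RNA could affect. Doublets were not removed, since Scrublet's automatic threshold called 0 primary and 1 cultured cell and had not worked. Leaving out the 1118 and 461 highest scores was an alternative. Scaling by TMM used edgeR 4.0.16. The ratios, intervals and thinning were tested on simulated data. Other alternatives are in the closing section.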

Additional observations from a re-analysis of the deposited data

Results flagged for a closer look

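Of the cultured barcodes, 5460 failed the cell filter and were in no comparison, 5336 of them for having under 1000 UMIs. All 8 genes had counts there above the limit that a count of 0 allows. Igfbp2 was at 895 CPM, Igf1r at 506 CPM, Igfbp7 at 402 CPM, Igfbp4 at 180 CPM, Igf1 at 51.3 CPM, Igfbp5 at 17.9 CPM, Igfbp6 at 12.9 CPM and Igfbp3 at 2.06 CPM, from 6298068 UMIs in all. Beside the kept cultured cells, at 680 CPM for Igfbp2 and 339 CPM for Igf1r, these barcodes had the higher level of both. Igfbp4 was the lower one, at 180 CPM against 221 CPM, and so was Igfbp6, at 12.9 CPM against 18.1 CPM. The source of these UMIs was not tested.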

How the results depend on the processing

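Under the 11 alternatives for each log2 ratio, the direction was kept for every gene but Igfbp5, whose log2 ratio was -0.026 with each cell given the same weight. The ranges were 10.65 to 11.23 for Igfbp2, 3.29 to 4.33 for Igfbp4, 1.91 to 5.19 for Igf1, 1.29 to 3.21 for Igfbp6, 0.15 to 3.13 for Igfbp3, 0.44 to 0.72 for Igf1r and -1.20 to -0.92 for Igfbp7. The 3 members at least 4-fold higher became 5 without the mixed primary cluster, an alternative chosen after seeing the data, as was leaving out the shallow cultured clusters, 2 with equal cell weights, where Igf1 was lost, 4 with at least 5000 UMIs per cell, where Igfbp6 reached 2.05, and 4 at 2-fold. The summed binding protein level, a log2 ratio of 0.72, was 0.75 without the mixed cluster, 0.74 both with at least 5000 UMIs per cell and without the highest Scrublet scores, 0.78 without mitochondrial and ribosomal protein UMIs, 0.61 with equal cell weights, 0.52 under TMM and 0.50 under median of ratios. Each of these binding protein sums includes Igfbp2, which was chosen by its rise. Under the main settings the other binding protein genes together had a lower level in culture. The 19 pathway genes apart became 36 at 2-fold. Over all genes, 966 were higher and 522 lower, against 2482 and 1143 at 2-fold, 2011 and 1939 of 17307 genes with no minimum CPM, 791 and 608 under TMM (56.5% higher instead of 64.9%), and 776 and 621 under median of ratios (55.5%), which moved the median by -0.24. Counting only members at 10 CPM or more in the library, from 4 to 7 of 7 varied 4-fold among cultured clusters, and 2 of 3 did among primary clusters in each of the 5 alternatives run. No share over all genes was computed beside these counts. The cause of these changes was not tested. No paired analysis was possible because each group is 1 library. Depth limits Igfbp1, at 2 and 1 UMIs, and in primary cells Igfbp2, at 50 UMIs, and Igfbp3, at 194 UMIs.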
